A study of Homo sapiens with 4 samples.

Results

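The RNA exosome is the main 3′ to 5′ RNA-degrading machine of human cells. Its subunits were taken here by symbol as the 10 genes EXOSC1 to EXOSC10, and all 10 were matched to an Ensembl identifier among the 60671 genes listed in both TPM tables. RNA-seq covered 4 libraries: 22RV1 cells expressing the control shRNA (22RV1 shCON), 22RV1 cells expressing shRNA against DDX52 (22RV1 shDDX52), PC3 shCON and PC3 shDDX52. 22RV1 is a human prostate carcinoma line grown from a xenograft and PC3 is a human prostate carcinoma line derived from a bone metastasis. All cells carried a lentiviral pLKO.1 hairpin and had been selected with puromycin, and the knockdown rested on 1 hairpin sequence. Each line and shRNA combination is a single library, so a difference within a line has no replicates and no test, and the only test open to the design treats the lines as a pair of repeats. The values are TPM, a length-corrected share of the library's transcripts that can be compared between genes but keeps no read depth, so the counting error of a value is unknown.

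The core of the complex is a barrel of 9 subunits. EXOSC4 to EXOSC9 form a ring of 6 proteins related to the bacterial enzyme RNase PH, arranged as the pairs EXOSC4–EXOSC9, EXOSC6–EXOSC7 and EXOSC5–EXOSC8, and EXOSC1, EXOSC2 and EXOSC3 sit on it as an RNA-binding cap. In humans the barrel itself has lost catalytic activity and threads RNA to associated nucleases, which are DIS3 at its base and EXOSC10 near the cap. In the nucleolus the exosome trims the 3′ ends of rRNA precursors and degrades the spacer fragments that processing releases. DDX52, the targeted gene, encodes a DEAD-box RNA helicase whose yeast relative acts in assembly of the small ribosomal subunit.

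Between shCON and shDDX52, DDX52 itself went from 4.88 to 1.20 TPM in 22RV1, while the PC3 values were 9.20 and 2.07 TPM. Markers matched the labels of the lines: the prostate kallikrein KLK2 stood at 32.6 and 23.1 TPM in the 22RV1 libraries, KLK2 and KLK3 were listed at 0 throughout PC3, and CAV1 was 162 and 130 TPM in PC3 against 0.45 and 0.39 TPM in 22RV1. The libraries differed in makeup. In 22RV1 the share of TPM on rRNA genes was 1.21% with shCON and 0.0872% with shDDX52, and in PC3 it was 0.0923% and 3.13%. The mitochondrially encoded share was larger with shDDX52 in both lines, at 9.81% and 13.0% in 22RV1 and 8.10% and 10.3% in PC3, and so moved alongside the lower exosome values described next. As TPM values compete for the same sum, the part of such shifts in any lower or higher value was not tested beyond the rescaling given with the results.

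The exosome mRNAs stood at very unequal levels, and their order was nearly the same in all 4 libraries. EXOSC4, a ring subunit, was highest throughout at 207 TPM (shCON) and 212 TPM (shDDX52) in 22RV1 and 260 and 199 TPM in PC3. It alone held between 32.7% and 43.2% of the summed TPM of the 10 subunits. EXOSC9, the partner of EXOSC4 and an autoantigen of the PM/Scl complex, was 24.7, 19.5, 17.7 and 18.0 TPM in the same order of libraries. EXOSC4 mRNA exceeded EXOSC9 mRNA by a factor of 8.39 in 22RV1 shCON and 14.6 in PC3 shCON. EXOSC5 was 97.6, 91.2, 64.4 and 50.4 TPM and its partner EXOSC8 39.6, 31.0, 29.7 and 23.9 TPM, a ratio between 2.11 and 2.95.

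EXOSC6 stood apart at the bottom. Its level was 1.18 TPM (shCON) and 1.24 TPM (shDDX52) in 22RV1 and 2.23 and 1.16 TPM in PC3, while its ring partner EXOSC7 was 80.4, 73.0, 78.4 and 70.9 TPM. The ratio of EXOSC7 to EXOSC6 lay between 35.2 and 68.1. Without EXOSC6, the highest subunit exceeded the lowest by a factor between 8.39 and 14.6, and with it the factor was between 116 and 176. EXOSC6 (ENSG00000223496) is also unlike the other members in structure: in GENCODE 29 it has 1 exon, its transcript of 5153 bases is the longest of the 10, and its coding sequence is 78.4% G and C against 41.4% to 61.6% in the others. The part of these features in its low value was not tested. Its transcript also shares stretches of at least 100 bases at 90% identity or more with transcripts of 22 other genes, and the sources used here do not say how shared reads were counted.

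Cap subunits lay between these extremes. EXOSC1 was 33.5, 24.6, 26.3 and 23.6 TPM, EXOSC2 was 55.1, 45.9, 30.1 and 26.4 TPM, and EXOSC3, in which recessive mutations cause pontocerebellar hypoplasia, was 53.0, 41.8, 57.9 and 40.9 TPM, in the order 22RV1 shCON, 22RV1 shDDX52, PC3 shCON and PC3 shDDX52. EXOSC10, the nuclear exonuclease and the human counterpart of yeast Rrp6, was 42.5, 37.1, 34.6 and 27.9 TPM. Of the 10 subunits, 5 kept the same place in all 4 libraries: EXOSC4 was 1st, EXOSC8 7th, EXOSC1 8th, EXOSC9 9th and EXOSC6 10th. The other subunits exchanged places between ranks 2 and 6, EXOSC5 being above EXOSC7 in 22RV1 and below it in PC3. With 1 library per condition, it cannot be said which neighbours in this order differ beyond their spread.

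**Figure D1:**
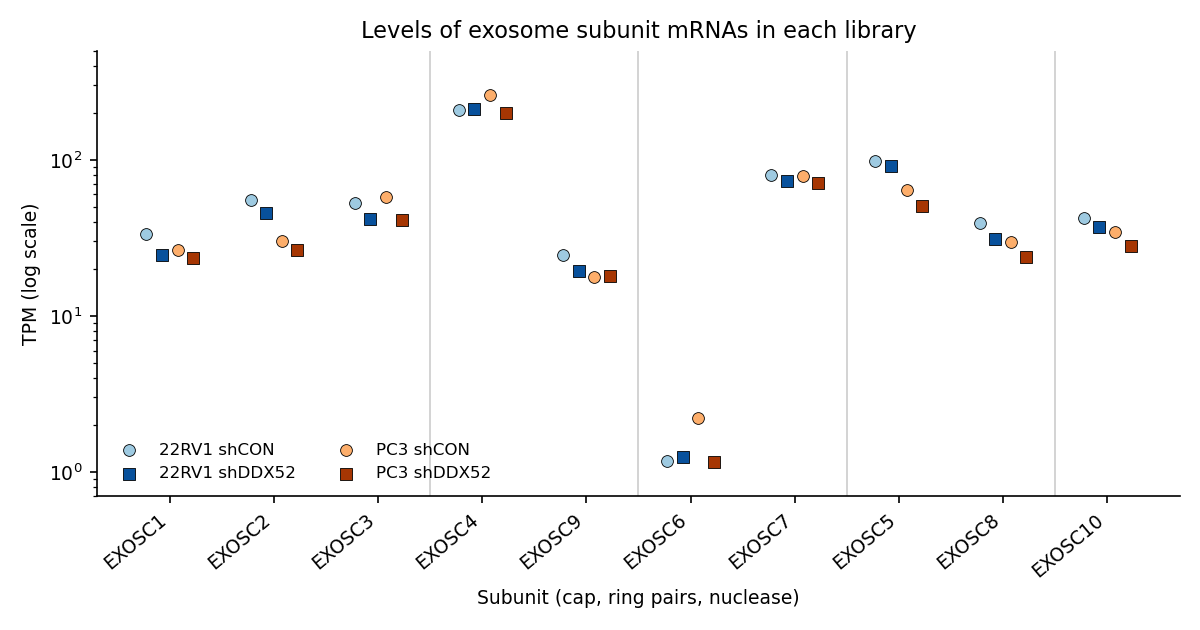
TPM of the 10 exosome subunits on a log axis, 1 point per library; circles are shCON, squares shDDX52, blue 22RV1 and orange PC3, and vertical lines separate the cap, the ring pairs and EXOSC10. EXOSC4 lies between 199 and 260 TPM and EXOSC6 between 1.16 and 2.23 TPM, with the other subunits between 17.7 and 97.6 TPM.

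The genes are spread over the genome, with only EXOSC2 and EXOSC3 on the same chromosome. In GENCODE 29 on GRCh38, which is not the build named in the submitters' processing notes, EXOSC1 lies on chromosome 10 from 97436142 to 97446017, EXOSC2 on chromosome 9 from 130693721 to 130704894 and EXOSC3 on chromosome 9 from 37766978 to 37801437. EXOSC4 lies on chromosome 8 from 144078626 to 144080647, EXOSC9 on chromosome 4 from 121801317 to 121817021, EXOSC7 on chromosome 3 from 44975241 to 45036066 and EXOSC6 on chromosome 16 from 70246778 to 70251930. EXOSC5 lies on chromosome 19 from 41386374 to 41397479, EXOSC8 on chromosome 13 from 36998816 to 37009613 and EXOSC10 on chromosome 1 from 11066618 to 11099881.

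Several members share exonic bases with a neighbour. EXOSC7 shares 604 bases on its own strand with CLEC3B, which was at 0.58 TPM or less in each library. EXOSC9 and CCNA2, which encodes cyclin A2, overlap on opposite strands by 254 exonic bases, EXOSC8 and SUPT20H by 302, EXOSC3 and DCAF10 by 96, and EXOSC3 shares 150 bases on its own strand with the gene model AL138752.2 (ENSG00000255872). The sources used here do not state whether counting used strand, and without it reads from such overlaps cannot be told apart. EXOSC3 also has the processed pseudogenes EXOSC3P1 and EXOSC3P2, with an identity of 93.5% over 505 aligned bases and 93.8% over 497. Both were listed at 0 in all 4 libraries.

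The first comparison asked how the exosome mRNAs differed when DDX52 was knocked down in 22RV1 cells. The log2 ratio of the knockdown library to its control was taken after adding 1 TPM to both values, which understates differences of low genes. A gene was called lower or higher when this log2 ratio was beyond −0.32 or 0.32. In 22RV1, 4 of the 10 subunits were called lower, none was called higher, and 8 had a log2 ratio below 0. Among the 14438 genes tested in 22RV1, which are those that reached 1 TPM in at least 1 of its libraries, 22.6% were called lower, 12.7% were called higher and 58.8% had a log2 ratio below 0. The median log2 ratio was −0.22 over the subunits and −0.076 over all genes tested. In bulk RNA, fewer cells expressing a gene and less of its RNA per cell cannot be told apart.

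Of the 3 cap subunits, 2 were called lower in 22RV1, and of the 6 ring subunits, 2. EXOSC1 was at 73.5% of its control level (log2 ratio −0.43), the lowest of the subunits. EXOSC3 was at 78.9% (−0.34) and EXOSC2 at 83.3% (−0.26), the last short of the call. In the ring, EXOSC8 was at 78.1% (−0.35) and EXOSC9 at 78.9% (−0.33), while their partners EXOSC5 and EXOSC4 were at 93.4% (−0.10) and 102% (0.03). EXOSC10 was at 87.4% (−0.19) and EXOSC7 at 90.9% (−0.14). EXOSC6, at 1.18 and 1.24 TPM, had a log2 ratio of 0.04. No subunit was 1.5-fold lower.

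In PC3 cells, again 4 of the 10 subunits were called lower and none higher, and 9 had a log2 ratio below 0. Among the 14262 genes tested in PC3, 22.5% were called lower, 19.7% were called higher and 53.5% lay below 0. The median log2 ratio was −0.30 over the subunits and −0.036 over all genes tested. Here the called subunits were EXOSC3, EXOSC4, EXOSC5 and EXOSC6, against EXOSC1, EXOSC3, EXOSC8 and EXOSC9 in 22RV1. The PC3 calls thus covered 1 of the 3 cap subunits and 3 of the 6 ring subunits, against 2 and 2 in 22RV1. This difference was not tested and was not seen in the calls left after rescaling over nuclear protein-coding genes. EXOSC3 was at 70.6% of control (log2 ratio −0.49, percentile 13.4), EXOSC4 at 76.7% (−0.38) and EXOSC5 at 78.2% (−0.35). EXOSC6 had the lowest ratio of the subunits (−0.58), but it rests on 2.23 and 1.16 TPM and was −0.89 with a pseudocount of 0.1.

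The other PC3 values were closer to the control. EXOSC8 was at 80.3% (−0.31) and EXOSC10 at 80.7% (−0.30), both just short of the call. EXOSC2 was at 87.6% (−0.19), EXOSC1 at 89.8% (−0.15) and EXOSC7 at 90.4% (−0.14). EXOSC9 was the exception, at 18.0 against 17.7 TPM (0.02). The summed TPM of the 10 subunits was 635 and 578 in 22RV1 and 601 and 482 in PC3, shCON first.

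**Figure D2:**
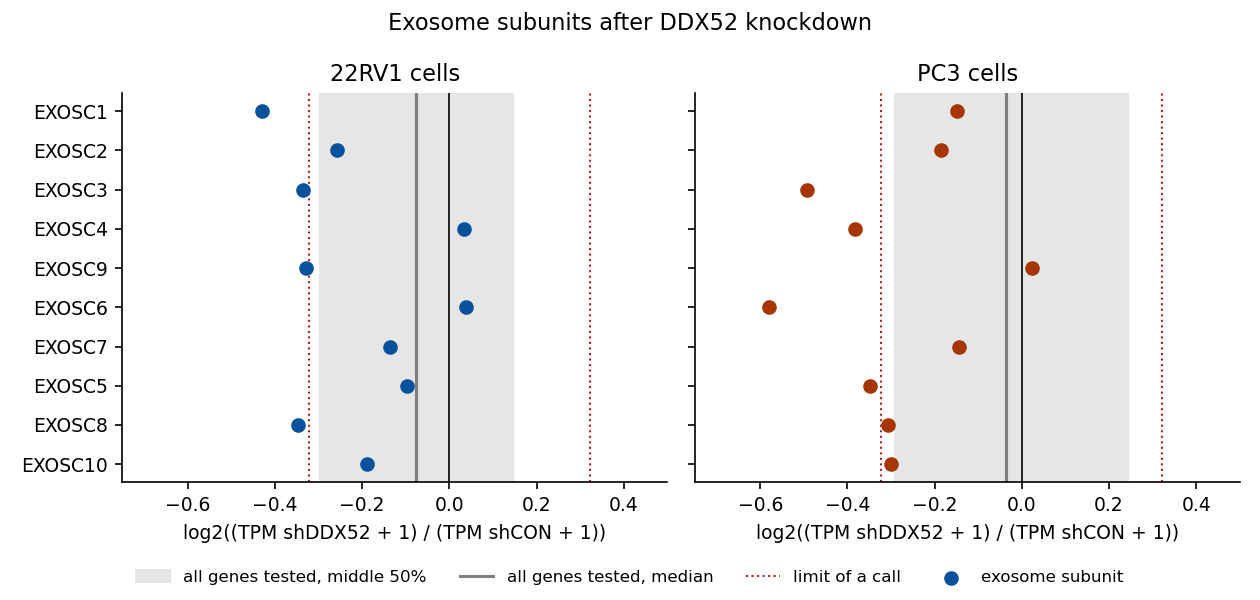
Log2 ratio of shDDX52 to shCON for each subunit in 22RV1 (left) and PC3 (right), 1 point per subunit; the grey band and line are the middle 50% and the median of all genes tested and dotted lines mark the limits of a call (−0.32 and 0.32). In each line 4 subunits lie beyond the left dotted line and none beyond the right one.

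EXOSC3 was the 1 subunit called lower in both lines. Of the 12175 genes tested in both, 5.23% were called lower in both. The TPM of EXOSC3 was 53.0 and 41.8 in 22RV1 and 57.9 and 40.9 in PC3, so both shDDX52 libraries lay below both shCON libraries. The same order held for EXOSC1 and EXOSC7, which were not called in both lines, and its share over all genes was not computed. The model AL138752.2, which overlaps EXOSC3, was 8.91 and 7.99 TPM in 22RV1 and 55.4 and 27.9 TPM in PC3. These are 89.7% and 50.3% of control, and how reads of the shared bases were divided is not known. EXOSC8, at 78.1% and 80.3% of control, and EXOSC10, at 87.4% and 80.7%, were lower in both lines to a like extent but short of the call in PC3 or in both. EXOSC7 was at 90.9% and 90.4%.

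A limma fit over all 4 libraries, with the cell line and the shRNA as additive terms, asked whether a knockdown difference was shared by the lines. It has 1 residual degree of freedom, and its residual is the disagreement between the lines, not that between repeats of a condition. The error of each gene was drawn toward a trend over all genes, which counts as 7.18 prior degrees of freedom. The SEs and intervals below thus rest mostly on that trend, not on the gene's own disagreement between the lines. For the 10 subunits, 0 passed an adjusted p of 0.05, and over the 12175 genes 0.00821% passed as lower and 0.0246% as higher. At an unadjusted p of 0.05, 1 subunit passed as lower, EXOSC3, and 4.01% of all genes did. EXOSC3 had a mean log2 ratio of −0.41 (SE 0.17, 95% interval −0.82 to −0.01, limma adjusted p = 0.82). EXOSC8 had −0.33 (SE 0.18, 95% interval −0.75 to 0.09) and EXOSC1 −0.29 (SE 0.19, 95% interval −0.73 to 0.15). The mean was below 0 for all 10, between −0.41 and −0.14, and the intervals of the other 9 include 0. The median of the means was −0.23 over the subunits and −0.050 over all genes. The share of all genes with a mean below 0 was not computed.

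The calls depended on the scaling. When TPM was recomputed over nuclear protein-coding genes, the median of all genes tested in PC3 moved from −0.036 to 0.087, that of the subunits from −0.30 to −0.18, and the subunits called lower were 2 in each line: EXOSC1 and EXOSC8 in 22RV1, and EXOSC3 and EXOSC6 in PC3. No subunit was then called lower in both, although EXOSC3 missed the call narrowly, at −0.32 in 22RV1 and −0.37 in PC3. The subunits' median lay below that of all genes tested under each scaling run.

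Members and their neighbours on the opposite strand had like values in some pairs and not in others. EXOSC9 was at 78.9% of control in 22RV1 and 102% in PC3, and CCNA2 was at 78.5% and 106%. CCNA2 levels were 35.7 TPM with shCON and 28.1 TPM with shDDX52 in 22RV1, against 22.3 and 23.7 TPM in PC3. The part of the 254 shared exonic bases in this was not tested. EXOSC8 and SUPT20H were also close, at 78.1% and 82.9% in 22RV1 and 80.3% and 79.7% in PC3. EXOSC3 and DCAF10 differed, at 78.9% and 99.7% in 22RV1 and 70.6% and 55.2% in PC3, and so did EXOSC4 and the antisense gene AC109322.1, with 274 shared bases, at 102% and 70.6% in 22RV1 and 76.7% and 83.9% in PC3. EXOSC5 and BCKDHA, which share 20 exonic bases, were at 93.4% and 110% in 22RV1 and 78.2% and 95.5% in PC3.

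Promoter windows in RefSeq (GRCh38.p14), running from 250 bases before to 50 bases after a gene's start, were found for 8 of the 10 members, the exceptions being EXOSC1 and EXOSC4. The letters of 5 common promoter motifs were searched on both strands. The E-box CACGTG, which c-Myc binds and which was included because the study concerned c-Myc, was found in 1 of the 8 members, EXOSC5, and in 7.26% of all 35116 windows. In EXOSC5 it lies 89 bases before the start and again at base 15 after it. The core letters bound by ETS factors, CCGGAA, were found in 1 of the 8, EXOSC3, against 17.2% of all windows. The GC box, GGGCGG, was found in 7 of the 8, the exception being EXOSC9, against 45.0% of all windows. The CCAAT box, searched by the letters of its name, was found in 4 of the 8 (EXOSC2, EXOSC5, EXOSC9 and EXOSC10), against 34.6%. The TATA box, searched as TATAAA, was found in EXOSC8 alone, against 11.5%, and its overlapping matches there begin 227 and 225 bases before the start. A match describes letters in a window and shows no binding.

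The 250 bases before the start are given for EXOSC3, the member called lower in both lines, and for EXOSC5, the member with the E-box, both on the minus strand and written 5′ to 3′ along the gene. Capitals mark CCGGAA and GGGCGG in EXOSC3 (chr9:37785093-37785342, the first of its 2 windows) and GGGCGG and CACGTG in EXOSC5 (chr19:41397360-41397609).
EXOSC3: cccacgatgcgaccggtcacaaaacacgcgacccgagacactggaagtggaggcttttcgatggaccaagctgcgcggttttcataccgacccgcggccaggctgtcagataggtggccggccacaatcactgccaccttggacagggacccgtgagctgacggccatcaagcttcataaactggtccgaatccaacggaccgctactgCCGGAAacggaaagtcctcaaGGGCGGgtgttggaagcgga
EXOSC5: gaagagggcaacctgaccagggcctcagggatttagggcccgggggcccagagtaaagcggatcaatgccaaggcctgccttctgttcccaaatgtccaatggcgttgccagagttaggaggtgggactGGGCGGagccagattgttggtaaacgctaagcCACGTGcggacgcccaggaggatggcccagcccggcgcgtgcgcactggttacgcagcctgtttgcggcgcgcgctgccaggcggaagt

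The CCGGAA match of EXOSC3 lies 41 bases before this start and its GC box 20 bases before it, and a further CCGGAA follows at base 21 after it. EXOSC5, with its E-box, had a log2 ratio of −0.10 in 22RV1 and −0.35 in PC3. The members with a window but no E-box ranged from −0.35 to 0.04 in 22RV1 and between −0.58 and 0.02 in PC3. The −0.58 is that of EXOSC6, at 2.23 and 1.16 TPM. With an E-box in only 1 member, its part in these values was not tested.

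The comparison of the cell lines used the same 4 libraries, so its values are not independent of those above. In shCON cells, 5 of the 10 subunits were called lower in PC3 than in 22RV1 and 2 higher, and 40.9% of the 15727 genes tested were called lower and 36.9% higher. EXOSC2 was at 30.1 TPM in PC3 against 55.1 in 22RV1, which is 54.7% (log2 ratio of PC3 to 22RV1 −0.85). EXOSC5 was at 66.0% (−0.59), EXOSC9 at 71.7% (−0.46), EXOSC1 at 78.6% (−0.34), and EXOSC8 had a log2 ratio of −0.40. EXOSC4 was higher in PC3 (125%, log2 ratio 0.32), at the very edge of the call, and so was EXOSC6 (0.57), at 2.23 against 1.18 TPM.

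In shDDX52 cells, all 10 subunits had a log2 ratio below 0, as did 50.3% of the 15598 genes tested, and 4 were called lower and none higher, against 39.3% and 38.5% of those genes. After rescaling over nuclear protein-coding genes, EXOSC3 and EXOSC7 lay just above 0 (0.02 and 0.01). EXOSC5 was at 55.2% (−0.84), EXOSC2 at 57.5% (−0.78), EXOSC10 at 75.2% (−0.40) and EXOSC8 at 77.1% (−0.36). EXOSC2, EXOSC5 and EXOSC8 were thus called lower in PC3 in both pairs of libraries, and the share of all genes so called was not computed. After the same rescaling, EXOSC8 missed the call in shDDX52 cells, at −0.31. EXOSC7 was at 97.5% with shCON and 97.0% with shDDX52.

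In the same limma fit over all 4 libraries, the term for the cell line passed an adjusted p of 0.05 for 2 of the 10 subunits, both lower in PC3, against 23.9% of genes lower and 22.2% higher. EXOSC2 had a mean log2 ratio of −0.81 (SE 0.18, limma adjusted p = 0.0064) and EXOSC5 one of −0.72 (SE 0.17, limma adjusted p = 0.0093). EXOSC8 had −0.38 (SE 0.18, limma adjusted p = 0.12) and the other subunits lay between −0.34 and 0.26. As for the shRNA term, these SEs and p-values rest mostly on the trend and measure no spread between repeats of a line.

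**Figure D3:**
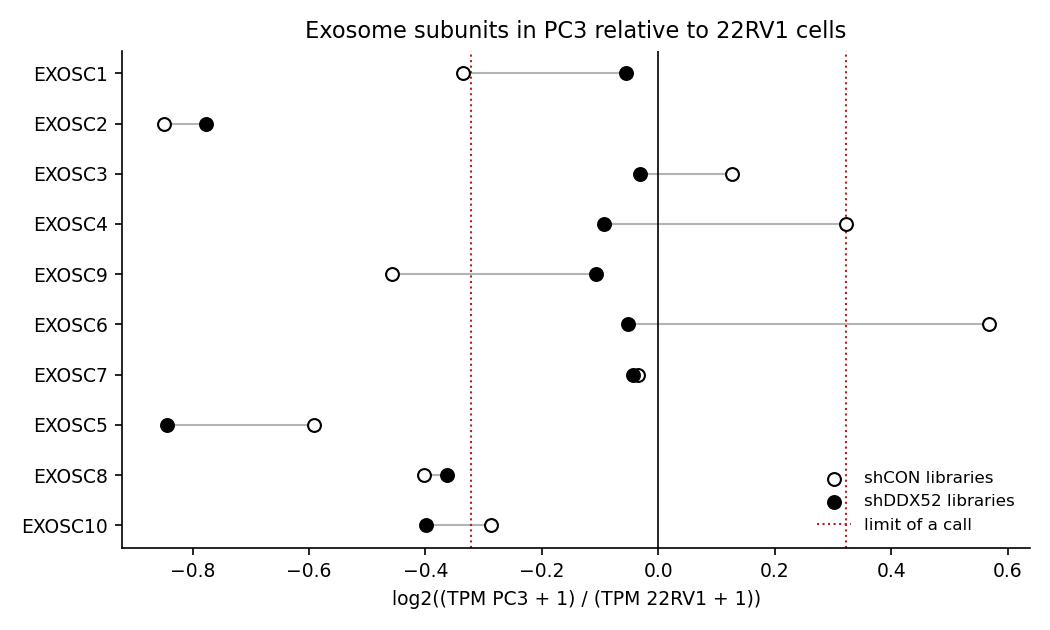
Log2 ratio of PC3 to 22RV1 for each subunit, open points for the shCON pair and filled points for the shDDX52 pair of libraries, with a line joining the pair and dotted lines at the limits of a call (−0.32 and 0.32). EXOSC2 and EXOSC5 lie at −0.59 or below in both pairs, while EXOSC4 and EXOSC6 are above 0 with shCON and just below it with shDDX52.

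The exosome acts with nucleases and adaptor complexes, and 30 such genes were followed. In 22RV1, 3 of them were called lower and 2 higher, with a median log2 ratio of −0.049. In PC3, 4 were called lower and none higher, with a median of −0.096. All genes tested had medians of −0.076 and −0.036. Of them, 22.6% and 22.5% were called lower and 12.7% and 19.7% higher. The partners thus held a smaller share of calls than all genes tested in both lines, for lower and for higher calls alike.

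For the nucleases of the DIS3 family the median was −0.23 (log2 ratio) in 22RV1, close to the −0.22 of the subunits, and 0.03 in PC3. DIS3, the processive nuclease of the nuclear exosome, was 4.45 and 3.64 TPM in 22RV1 (log2 ratio −0.23) and 3.90 and 4.02 in PC3 (0.03), so EXOSC10 mRNA exceeded DIS3 mRNA by a factor between 6.94 and 10.2. DIS3L, its cytoplasmic counterpart, was 10.5 and 8.80 TPM (−0.23) and 9.94 and 9.36 TPM (−0.08). DIS3L2, which works without the exosome on uridylated RNA, was 14.4 and 15.1 TPM (0.06) and 11.4 and 12.4 TPM (0.11). None of the 3 was called in either line.

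Of all genes tested, 22.6% were called lower in 22RV1 and 22.5% in PC3. Among nuclear and nucleolar partners, 1 of 8 was called lower in each line. In 22RV1 it was UTP18, a small-subunit processome protein whose yeast relative recruits the exosome-linked helicase, from 26.4 to 18.9 TPM (−0.46), against 59.7 and 60.8 TPM in PC3 (0.03). In PC3 it was MPHOSPH6, which links the helicase MTREX to the core, from 41.4 to 28.3 TPM (−0.53), against 14.2 and 14.4 TPM in 22RV1 (0.02). MTREX was 8.09 and 8.12 TPM in 22RV1 and 9.15 and 7.60 in PC3 (0.00 and −0.24). C1D, a partner of EXOSC10, had log2 ratios of 0.24 and −0.29, NOP53 of 0.12 and −0.24, NVL of −0.10 and −0.20, WDR74 of −0.03 and −0.08, and NRDE2 of −0.17 and 0.17, 22RV1 first.

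Of the 10 genes of the nuclear adaptor complexes, 1 was called lower and 2 higher in 22RV1, and 1 lower and none higher in PC3. Over all genes tested, 22.6% were called lower and 12.7% higher in 22RV1, and 22.5% and 19.7% in PC3. TRAMP adds short tails that mark nuclear RNA for the exosome: its zinc-knuckle protein ZCCHC7 was called lower in PC3, from 6.87 to 4.42 TPM (−0.54), with −0.12 in 22RV1, and its polymerases TENT4A and TENT4B had −0.10 and −0.05 in 22RV1 and 0.29 and 0.25 in PC3. NEXT targets promoter-upstream transcripts: in 22RV1 its scaffold ZCCHC8 was called lower, from 7.59 to 5.20 TPM (−0.47), and its RNA-binding protein RBM7 higher, from 2.71 to 4.40 TPM (0.54), against −0.01 and −0.29 in PC3. PAXT targets polyadenylated nuclear RNA: its core protein ZFC3H1 was called higher in 22RV1, from 2.35 to 3.40 TPM (0.39), with −0.15 in PC3, and PABPN1, RBM26, RBM27 and ZC3H3 were not called in either line.

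Of the 5 cap-linked adaptors, none was called in 22RV1. In PC3, where 22.5% of all genes tested were called lower, 2 of the adaptors were. These were NCBP3, from 9.06 to 6.0 TPM (−0.52), and SRRT, which connects the cap-binding complex to NEXT, from 106 to 81.0 TPM (−0.38). NCBP1, NCBP2 and ZC3H18 had log2 ratios of −0.20, −0.18 and 0.20 in 22RV1 and −0.04, −0.18 and −0.02 in PC3. Of the 4 genes of the SKI complex and its bridge, which feed mRNA to the cytoplasmic exosome, 1 was called lower in 22RV1, against 22.6% of all genes tested. It was SKIC8, from 50.5 to 38.6 TPM (−0.38), with −0.22 in PC3. SKIC2 had 0.21 and 0.12, SKIC3 −0.13 and −0.06 and HBS1L −0.16 and 0.05.

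The other mRNA decay genes were followed as well: 31 genes for 5′ to 3′ exonucleases, decapping, the LSM ring and deadenylation. In 22RV1, 3 of 31 were called lower and none higher, with a median of −0.11, where 22.6% and 12.7% of all genes tested were called. In PC3, 9 of the 29 tested were called lower and 3 higher, with a median of −0.10, where 22.5% and 19.7% of all genes tested were called. Of the 29 tested in both lines, 0 were called in the same direction in both, and over all genes this share was 5.23% for lower and 2.45% for higher.

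**Figure D4:**
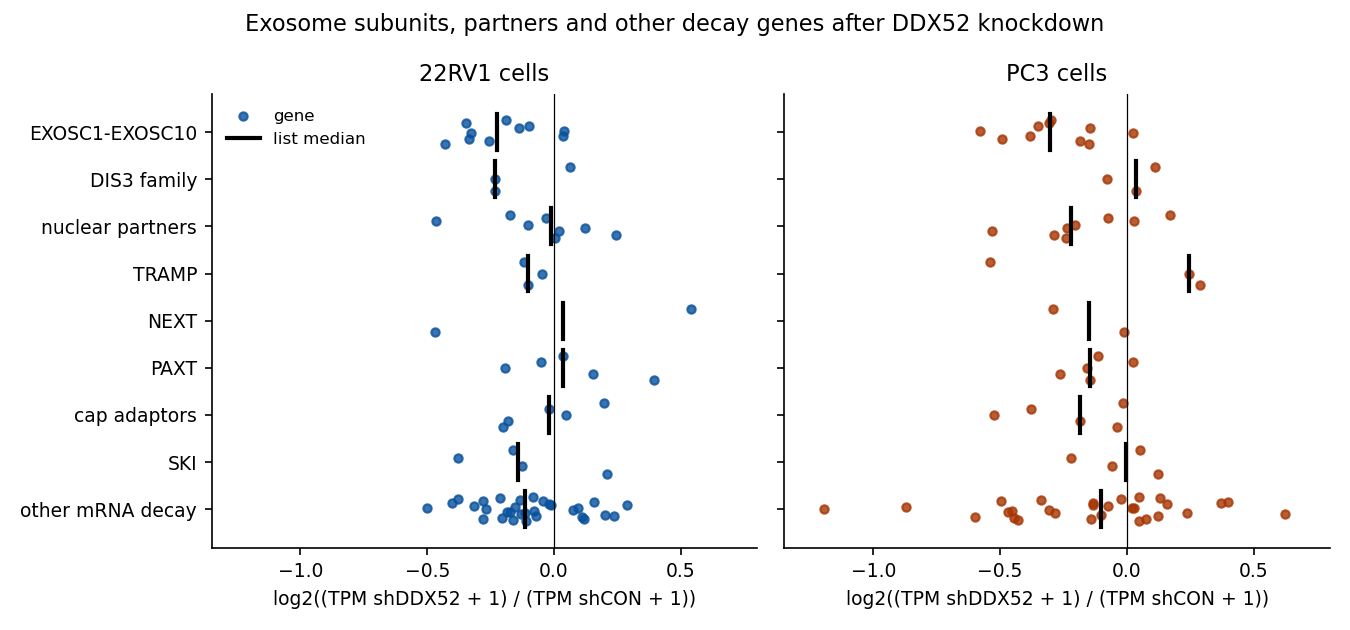
Log2 ratio of shDDX52 to shCON for the exosome subunits, 7 groups of partner genes and the other mRNA decay genes in 22RV1 (left) and PC3 (right), 1 point per tested gene, with black bars at the list medians. The subunits' median is −0.22 in 22RV1 and −0.30 in PC3, and that of the other decay genes is −0.11 and −0.10.

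The pattern of the subunits over the 4 libraries, taken as the median of their log2 TPM after each was centred on its own mean, was highest in 22RV1 shCON (0.29), near 0 in 22RV1 shDDX52 and PC3 shCON (−0.031 and −0.022) and lowest in PC3 shDDX52 (−0.20). EXOSC1 lay nearest to it, at a distance of 0.092, and EXOSC6 farthest, at 0.62. Of 5236 other named genes with at least 10 TPM in every library, 610 were closer to the pattern than the median subunit was (0.30). The nearest 5 were LEO1, CEP20, ZNF3, TRAPPC12 and ANAPC5, at distances of 0.040 to 0.063. LEO1, a subunit of the PAF1 transcription elongation complex, was 16.3, 13.4, 13.2 and 11.5 TPM. With 4 points that share libraries, such likeness is a description only.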

How the data were processed

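The 4 RNA-seq libraries were 22RV1 and PC3 with each shRNA, 1 apiece, for which the authors deposited TPM values per Ensembl gene. The submitters' processing notes name CASAVA, HISAT2 and the build hg19. The program that made TPM, the annotation and any filter are not given in the sources used here. Each column was matched to its library by title. Of 60671 identifiers, 42020 had a symbol and 58453 were in GENCODE 29, which gave gene types, positions, overlaps and transcripts. TPM keeps no depth, so no counting interval or count test was possible.

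Log2 ratios used a pseudocount of 1 TPM. A gene was tested if the higher of its 2 values reached 1 TPM, and called beyond 0.32 in either direction. Lists are described by counts and medians beside all genes tested. The ratio and the call were run on simulated data with 2-fold shifts, which checks the code and not the calls reported here. After seeing the data, limma 3.58.1 (R 4.3.3) was fitted to log2(TPM + 1) of the 12175 genes tested in both lines, with cell line and shRNA as terms, a mean-variance trend and Benjamini-Hochberg adjustment. Shared transcript sequence was found with BLAST 2.17.0. Alternatives covered the pseudocount, filter, scaling, centring and fold. Scripts ran in Python 3.11.15 (pandas 2.3.3, numpy 2.4.6) and figures in matplotlib 3.10.9.

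The members and lists were chosen with earlier results of these data known. Named genes were the members, DDX52, the 30 partners, up to 5 decay genes called in the same direction in both lines, and the 5 genes nearest in pattern. Marker genes checked the lines, and genes that overlap a member were added after their values were seen.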

Additional observations from a re-analysis of the deposited data

Results flagged for a closer look

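These differences between the cell lines or the shRNAs were not tested, since 4 libraries leave no residual for the interaction, and each rests on single values. Members are listed when their log2 ratios had opposite signs, whatever their size, and partner genes when 1 of the ratios was also called. The log2 ratio of shDDX52 to shCON was lower in PC3 than in 22RV1 by −0.42 for EXOSC4 (0.03 in 22RV1, −0.38 in PC3) and by −0.62 for EXOSC6 (0.04 and −0.58), whose levels were between 1.16 and 2.23 TPM. It was higher in PC3 by 0.35 for EXOSC9 (−0.33 and 0.02). Among partners, the difference PC3 minus 22RV1 was −0.55 for MPHOSPH6, 0.49 for UTP18, −0.83 for RBM7, −0.54 for ZFC3H1 and −0.57 for NCBP3. The same libraries read across the lines give the ratio of PC3 to 22RV1, which changed sign between shCON and shDDX52 cells for EXOSC3 (by −0.16, with both ratios above 0, at 0.07 and 0.02, after rescaling over nuclear protein-coding genes), EXOSC4 (by −0.42) and EXOSC6 (by −0.62).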

How the results depend on the processing

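The 78 results were recomputed under 515 combinations of result and alternative, of which 462 stayed within 0.1 (log2) or 1.5 times of the value reported, 53 moved and 0 called values changed sign. The alternatives of filter and fold cannot change the ratio of a single subunit, so part of the 462 was fixed in advance and measures no stability. The limma fit with the lines as a pair and the alternatives with at least 20 TPM and without EXOSC6 were chosen after seeing the data. In the limma fit, 0 subunits passed for the knockdown and 2 for the cell line with a pseudocount of 0.1 and after rescaling too. The genes passing for the knockdown went from 1 lower and 3 higher to 36 and 33 after rescaling over nuclear protein-coding genes. With that rescaling the prior degrees of freedom of the fit went from 7.18 to 76.2, so the errors of the 2 fits were not formed alike. Of 4 subunits called lower in 22RV1, 2 were called when TPM was rescaled over nuclear protein-coding genes. After dropping mitochondrial genes and the 20 most abundant genes, sets that can overlap, 1 was called. After centring on the median of all genes, 1 was called too, in both latter cases EXOSC1. In PC3, rescaling over nuclear protein-coding genes left 2 called, moved the subunits' median to −0.18 and the partners' median from −0.096 to 0.025, and turned the split of calls over all genes from 22.5% lower and 19.7% higher to 13.7% and 26.8%. At 1.5-fold and at 2-fold, 0 subunits were called lower in either line. Of the 2 subunits called higher in PC3 than in 22RV1 with shCON, 1 was called with at least 5 TPM (EXOSC4, as EXOSC6 is then filtered out) and 1 under either rescaling (EXOSC6), so neither was called under all of these. With at least 20 TPM, the share of all genes called higher in PC3 was 11.8%, and with no filter the share called lower was 7.06% in 22RV1 and 6.76% in PC3. The SD of log2 TPM over the subunits, 1.73, 1.72, 1.63 and 1.66 in the 4 libraries, was 1.94, 1.92, 1.75 and 1.87 with a pseudocount of 0.1 and 0.91, 1.04, 1.13 and 1.05 without EXOSC6. The cause of these changes was not tested.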

Other observations

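Among the other mRNA decay genes, named here after their values were seen, the PC3 calls fell on several machines. Of the 9 called lower, 3 encode LSM proteins (LSM2 −0.47, LSM3 −0.45 and LSM5 −1.19), which bind the 3′ ends of deadenylated mRNA, 3 belong to the CCR4-NOT deadenylase (CNOT1 −0.87, CNOT10 −0.49 and CNOT11 −0.34), and DCP2 (−0.45), DCPS (−0.60) and DXO (−0.43) act on the mRNA cap. The 3 called higher were PATL1 (0.62), CNOT9 (0.40) and CNOT8 (0.37), so CCR4-NOT genes were called in both directions. In PC3, CNOT2, CNOT3, CNOT6 and CNOT7 were not called. Neither were the other LSM genes: LSM1 (−0.28), LSM4 (−0.31), LSM6 (0.02) and LSM7 (0.03). Over all genes tested in PC3, 22.5% were called lower and 19.7% higher. LSM5 was 61.0 TPM in PC3 shCON and 26.1 TPM in PC3 shDDX52, and 22.0 and 18.1 TPM in 22RV1. In 22RV1 the genes called lower were LSM6 (−0.50), CNOT7 (−0.40) and PAN2 (−0.38). These are single-library differences with no test.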
